A study of Mus musculus with 6 samples.

Results

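The genes described here encode Rab GTPases, small proteins that mark the membranes of the cell. They were chosen by symbol, as the protein-coding genes named Rab with a number and at most a letter and a further digit, with at least 10 reads summed over the 6 libraries. This left 52 genes of the 59 such symbols among 41388 genes in the deposited tables, on 18 chromosomes. The libraries were bulk RNA-seq of macrophages sorted from the aortic intima of C57BL/6 mice of genotype ApoE -/-, which form plaques, fed a Western diet for 28 weeks (6 mice in the series design). Live cells positive for CD64 and CD11b were divided by BODIPY, which stains neutral lipid, and by side scatter: those high for both make the foamy group (3 libraries), those low for both the non-foamy group (3 libraries). Both groups thus share the ApoE -/- genotype and the diet, and no wild-type or chow-fed library was analysed here. The labels give neither the age of the mice nor how they were divided among the libraries, so a p-value here reflects the spread among these 3 libraries per group, part or all of which may be technical.

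A Rab protein works as a switch: bound to GTP and anchored in a membrane by lipid groups, it recruits effectors that move, tether or fuse vesicles, and after GTP is hydrolysed it is taken off the membrane by GDI. Exchange factors load GTP and GTPase-activating proteins speed its hydrolysis. Different Rab proteins sit on different compartments, from the Golgi to early, recycling and late endosomes, and in macrophages they order the maturation of phagosomes and the delivery of ingested lipoproteins to lysosomes. Rab18 is also known from the surface of lipid droplets.

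Total counts in genes were 15628627 to 24619075 per library. Apoe, the gene disrupted in both groups, was at 3.88 to 7.02 CPM in foamy and 2.60 to 5.80 CPM in non-foamy libraries. Of the genes of the sorting antibodies, Fcgr1 (CD64) was at 184 to 273 against 129 to 235 CPM and did not pass the test, and Itgam (CD11b) fell from 142 ± 13.2 CPM in non-foamy to 77.8 ± 7.82 CPM in foamy libraries (SD, n = 3; edgeR adjusted p = 0.0229), a call that did not hold under 8 of 16 alternative settings. The 10 most abundant genes took 28.8% to 31.7% of the counts in foamy and 21.5% to 24.4% in non-foamy libraries. Values below are CPM, read counts relative to the library total scaled with TMM factors, or that value per kilobase of gene length (RPKM) where genes are compared with each other. The log2 fold change is foamy over non-foamy.

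Among the Rab genes 1 passed the test: Rab20, which was lower in foamy libraries. For 20 of the 45 tested, the 95% interval of the difference lay within 2-fold in either direction. Of the 52 genes, 45 had enough reads to be tested, and 1 of them (2.22%) had an edgeR adjusted p below 0.05, against 5.41% of all 11303 genes tested (2.5% higher and 2.9% lower). Before adjustment, 6 Rab genes had p below 0.05, with Rab31, Rab9, Rab37, Rab19 and Rab11b higher and Rab20 lower, against a background of 18.7%. The 3 foamy values lay above the 3 non-foamy values in 8 tested Rab genes (17.8%, background 12.4%), namely Rab31, Rab9, Rab37, Rab19, Rab11b, Rab1a, Rab7b and Rab4a. They lay below in Rab20 and Rab39 (4.44%, background 13.3%), and the groups overlapped in the other 35. DESeq2 called 3 Rab genes, Rab20 lower and Rab31 and Rab9 higher, against a background of 10.6%.

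The median log2 fold change was 0.23 over the 45 tested Rab genes and -0.04 over all genes tested, and 31 Rab genes were above 0 (68.9%, background 47.2%). These directions hang on the scaling. With total counts as the only scaling, the median of all genes moved to -0.31, that of the Rab genes to -0.03, and 19 of the 45 were above 0. The difference between the medians was about the same under both scalings, so the signs below are relative to TMM factors of 0.868 to 0.966 in foamy and 1.035 to 1.186 in non-foamy libraries.

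**Figure D1:**
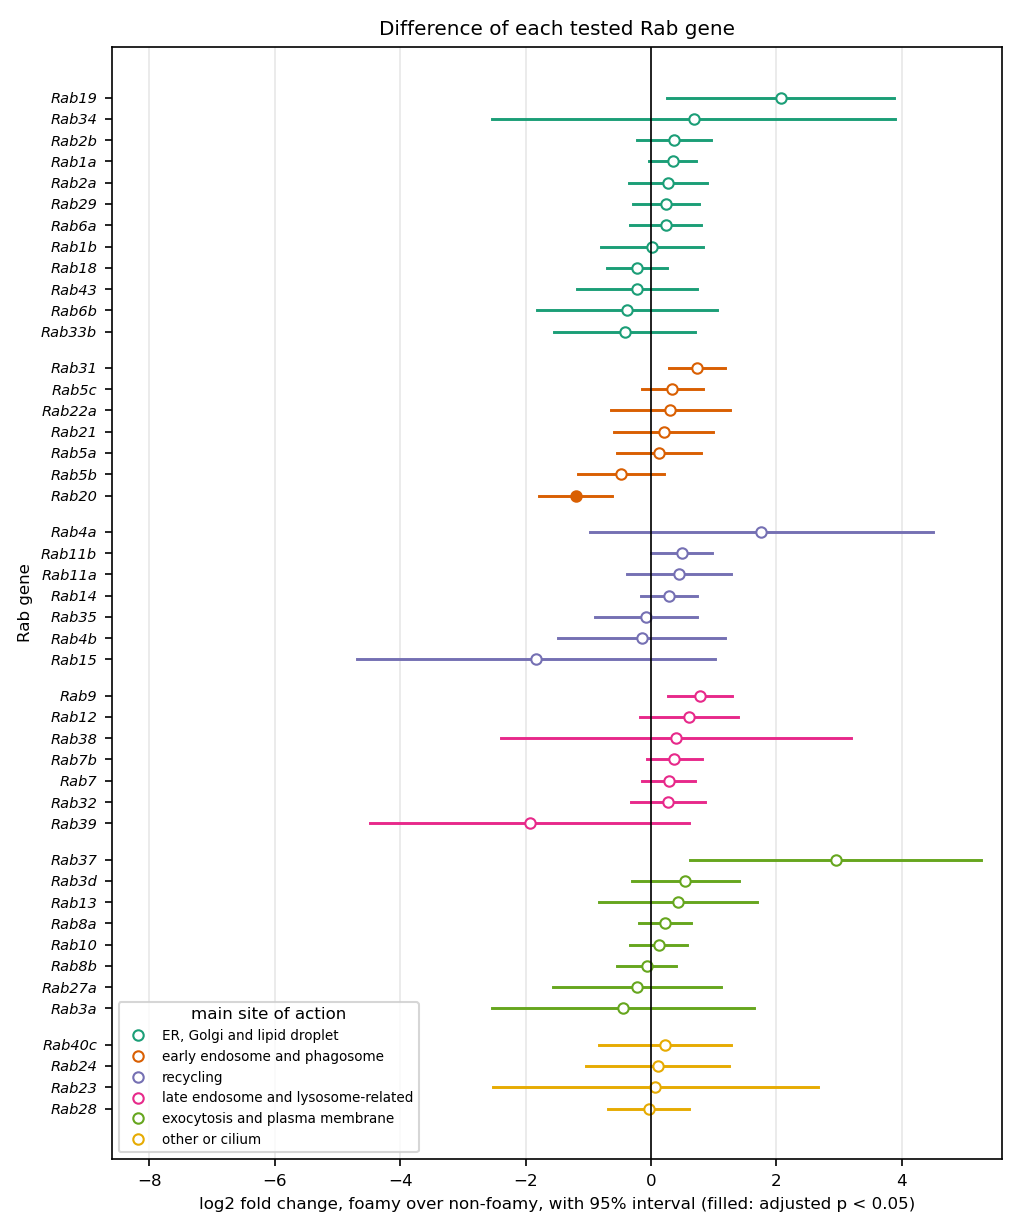
The log2 fold change, foamy over non-foamy, of each of the 45 tested Rab genes (points) with its 95% interval (lines), grouped by main site of action. Only Rab20 is filled, for an adjusted p below 0.05, and the widest intervals belong to genes with few reads.

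Summed over the 52 genes, Rab reads made up 0.284%, 0.278% and 0.291% of all counts in the foamy libraries and 0.315%, 0.294% and 0.251% in the non-foamy libraries. On that scale the groups overlapped. After TMM scaling the sums were 3275, 2879 and 3244 CPM in foamy and 2665, 2729 and 2436 CPM in non-foamy libraries, and the groups were apart. In bulk samples, fewer cells of a type and less RNA per cell cannot be told apart.

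**Figure D2:**
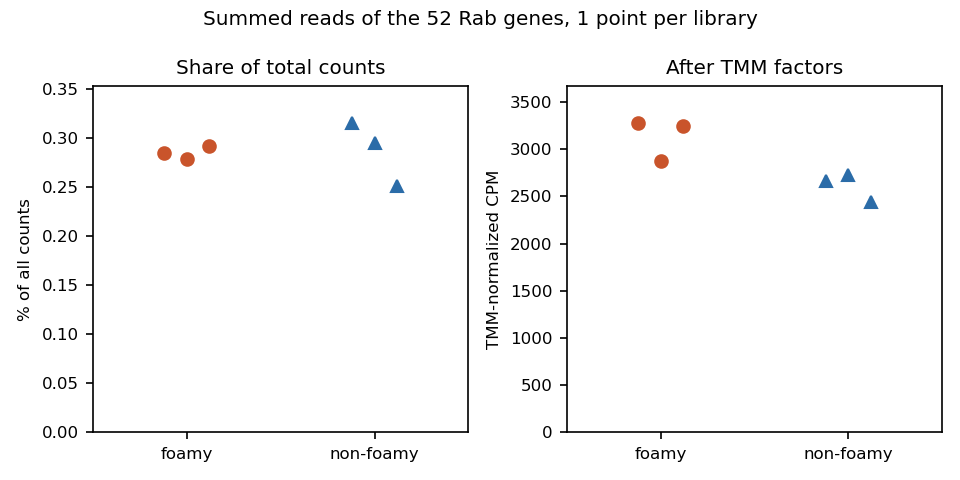
Summed reads of the 52 Rab genes in each library (1 point per library), as a percentage of all counts (left) and as TMM-normalized CPM (right), both axes from 0. The groups overlap on the left, between 0.251% and 0.315%, and are apart on the right, with every foamy library above 2729 CPM.

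The order of Rab genes by level was nearly the same in both populations, with a Spearman correlation of mean RPKM of 0.974 over the 52 genes, given as a description because gene length and library make-up are shared. Rab7, which directs late endosomes to fuse with lysosomes, ranked first in both, at a mean of 127 RPKM over all libraries. Rab31 followed at 93.7, Rab8b at 71.3, Rab7b at 59.9 and Rab18 at 56.7 RPKM. These 5 genes held 41.4% to 47.2% of the summed Rab RPKM in foamy and 37.5% to 50.2% in non-foamy libraries, so the groups overlapped in this share. Among the 29 Rab genes with a mean of at least 10 CPM, the fold change ran from 0.435 for Rab20 to 1.72 for Rab9. The 95% interval of the difference lay within 2-fold in 20 of these 29 (69.0%, background 45%), and 3.45% of them were called (background 8.21%).

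**Figure D3:**
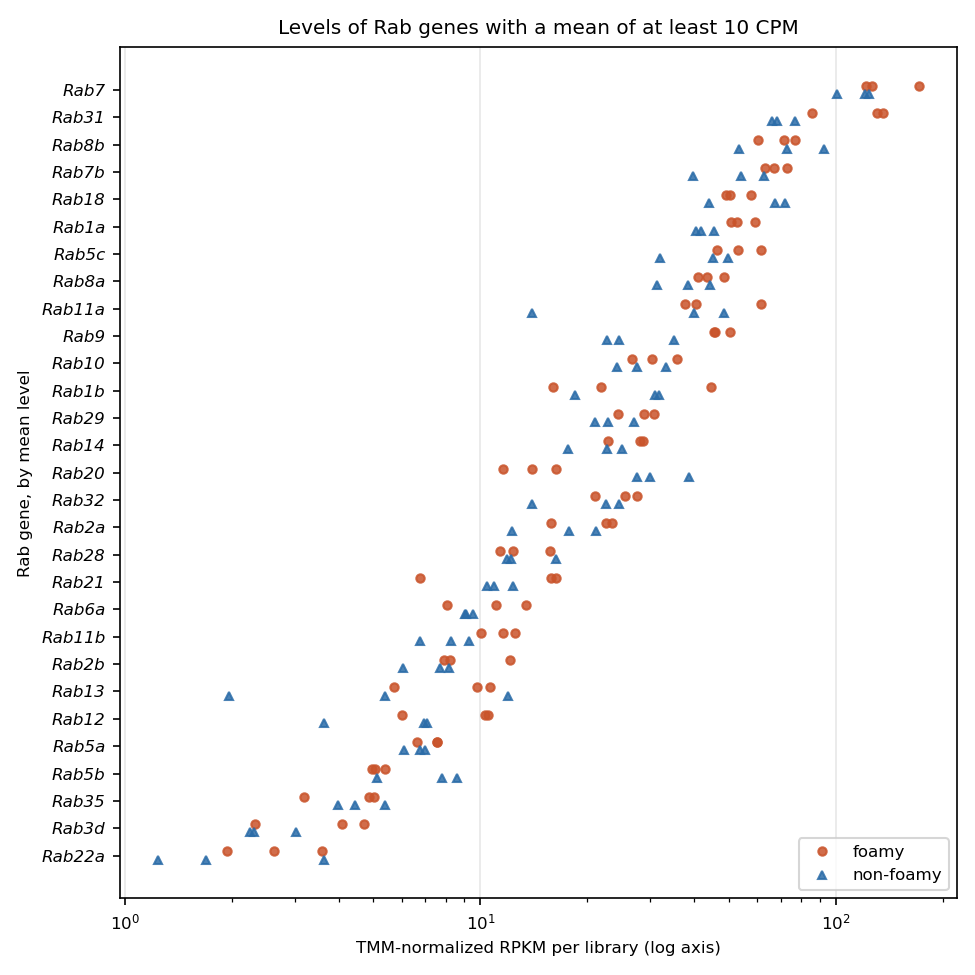
RPKM, after TMM scaling, of the 29 Rab genes with a mean of at least 10 CPM in each of the 3 foamy and 3 non-foamy libraries (points, log axis), ordered by mean level. Rab7 and Rab31 lead, and the points of the groups lie apart in Rab20, Rab31, Rab9, Rab11b, Rab1a and Rab7b.

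Of the 7 Rab genes of early endosomes and phagosomes, Rab20 fell and the other 6 did not pass the test (median log2 fold change 0.21 over the 7). Rab20, which acts on phagosomes and macropinosomes as they mature, stood at 23.5, 20.2 and 16.8 CPM in foamy libraries 1 to 3. In the non-foamy libraries it stood at 39.8, 43.4 and 56.0 CPM. Every foamy library was below every non-foamy one, and the ranges were well apart. The means were 20.2 ± 3.38 and 46.4 ± 8.48 CPM (SD, n = 3), a log2 fold change of -1.20 (SE 0.27, 95% interval -1.79 to -0.62, edgeR adjusted p = 0.0244). Among the 52 Rab genes it ranked 17th by RPKM in foamy and 10th in non-foamy libraries.

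The Rab20 call was lost under 7 of 16 alternative settings, among them leaving out any library but non-foamy replicate 1. The adjusted p was 0.0565, 0.106 and 0.122 without foamy replicate 1, 2 or 3, with log2 fold changes of -1.32, -1.19 and -1.08. It was 0.0646 (log2 fold change -1.25) without non-foamy replicate 2 and 0.0755 (log2 fold change -1.03) without non-foamy replicate 3. A test against a 1.5-fold change gave 0.135. Over all 16 alternative settings the log2 fold change ran from -1.47 to -1.03 and the adjusted p from 0.00112 to 0.135. Rab20 (ENSMUSG00000031504) lies on the minus strand of chromosome 8 from 11453392 to 11478638 (GRCm38). Its exons overlap those of the antisense RNA E230013L22Rik by 311 bases, and 22.9% of the 50-base windows of its transcripts also occur there. Whether strand was used in counting is not given in the sources used here. Without strand, reads of the overlap cannot be assigned. E230013L22Rik itself had 2, 17 and 0 reads in foamy and 92, 22 and 78 reads in non-foamy libraries, against 311 to 496 and 735 to 1422 reads of Rab20.

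Rab31, which carries mannose 6-phosphate receptors from the trans-Golgi network to endosomes, was the second most abundant Rab gene. It stood at 452, 298 and 471 CPM in foamy and at 237, 266 and 230 CPM in non-foamy libraries. The groups did not overlap, though foamy replicate 2 was close to non-foamy replicate 2. The means were 407 ± 95 and 245 ± 19.0 CPM (SD, n = 3; log2 fold change 0.73, SE 0.20, 95% interval 0.288 to 1.181), and edgeR's adjusted p of 0.0628 missed the threshold. It passed with DESeq2 (0.0159), with no filter on low counts (0.0162), with a stricter filter (0.0402) and without foamy replicate 2 (log2 fold change 0.93, adjusted p = 0.038), and over all 16 alternatives the adjusted p ran from 0.0159 to 0.639. Rab31 (ENSMUSG00000056515) lies on the minus strand of chromosome 17 from 65651726 to 65772752, and none of its 50-base windows occurs in another gene.

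Promoters of Rab20, Rab31 and Rab9 are printed because these are the Rab genes called by edgeR under its main settings or by DESeq2. Each runs from 250 bases before to 50 bases after the start in RefSeq (GRCm38.p6), 5′ to 3′ on the minus strand, at chr8:11478591-11478890, chr17:65772703-65773002 and chrX:166479818-166480117. Capitals mark CACGTG, the letters of the E-box of the CLEAR motif known from promoters of lysosomal genes.
Rab20: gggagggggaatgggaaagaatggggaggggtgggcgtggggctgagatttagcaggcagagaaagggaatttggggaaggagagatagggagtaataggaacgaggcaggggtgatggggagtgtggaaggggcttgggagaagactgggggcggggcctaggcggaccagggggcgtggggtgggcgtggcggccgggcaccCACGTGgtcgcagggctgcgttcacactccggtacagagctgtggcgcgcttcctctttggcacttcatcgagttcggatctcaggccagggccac
Rab31: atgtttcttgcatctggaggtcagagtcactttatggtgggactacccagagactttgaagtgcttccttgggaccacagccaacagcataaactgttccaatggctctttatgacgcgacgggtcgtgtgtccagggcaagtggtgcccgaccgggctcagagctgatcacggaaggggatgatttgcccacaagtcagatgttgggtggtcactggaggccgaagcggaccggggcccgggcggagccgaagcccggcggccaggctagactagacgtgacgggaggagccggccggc
Rab9: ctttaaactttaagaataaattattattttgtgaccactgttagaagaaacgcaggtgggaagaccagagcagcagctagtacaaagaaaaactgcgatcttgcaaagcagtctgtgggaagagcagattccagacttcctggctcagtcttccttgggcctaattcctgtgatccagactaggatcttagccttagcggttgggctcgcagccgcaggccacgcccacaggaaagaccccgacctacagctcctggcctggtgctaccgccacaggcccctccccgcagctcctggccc
CACGTG, which reads the same on both strands, begins at base 205 of the Rab20 window and is absent from the windows of Rab31 and Rab9. None of TCACGTGA, TGACTCA, TGACGTCA and GAGGAAGT, searched on both strands, is in any of the 3 windows. Of 32851 promoter windows of this length in the table, 7.15% hold CACGTG, which every TCACGTGA match also contains. A window was found for 42 of the 52 Rab genes. Of their 54 windows, 6 (11.1%) hold CACGTG, those of Rab20, Rab21, Rab23, Rab24, Rab27a and Rab5a. TCACGTGA is in 3 of the 54 (5.56%), those of Rab21, Rab24 and Rab5a, against 0.974% of all windows. TGACTCA is in 3.7% against 5.2%, TGACGTCA in 1.85% against 1.79% and GAGGAAGT in 3.7% against 3.2%. The median GC content was 62.3% in the 54 windows and 52.7% in all windows, and its part in these shares was not tested. These matches are descriptions of letters and say nothing of binding.

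The Rab5 proteins let early endosomes fuse with each other, and none of their 3 genes passed the test. Rab5c, the most abundant, stood at 135, 102 and 116 CPM in foamy and 70.1, 109 and 98.9 CPM in non-foamy ones (log2 fold change 0.34, edgeR adjusted p = 0.472). Rab5b stood at 15.7, 17.1 and 16.02 against 24.8, 27.1 and 16.2 CPM (log2 fold change -0.48, edgeR adjusted p = 0.477). Its foamy values were alike and 1 non-foamy library stood level with them. Rab5a was at 15.6 to 17.8 CPM in foamy and 14.3 to 16.5 CPM in non-foamy libraries, overlapping ranges with a 95% interval of the log2 fold change from -0.54 to 0.80. Rab21, tied to integrin uptake, and Rab22a, of the early endosome, had log2 fold changes of 0.21 and 0.31 with overlapping groups.

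The 7 genes of late endosomes and lysosome-related organelles had the highest median log2 fold change of the 6 role groups, 0.37, with 6 above 0 and none past the test; with total counts only, Rab7 and Rab32 of these lay at -0.006 and -0.003. With RPKM summed over them, foamy libraries held 316, 268 and 286, and non-foamy libraries 242, 219 and 210.2. As a share of all Rab RPKM the groups overlapped, at 28.5% to 30.0% against 25.3% to 29.3%. Rab9, which returns mannose 6-phosphate receptors from late endosomes to the trans-Golgi network, stood at 79.5, 88.0 and 80.0 CPM in foamy libraries. In non-foamy libraries it stood at 43.0, 39.7 and 61.2 CPM. All foamy values were above all non-foamy ones, and non-foamy replicate 3 was the nearest to them. The means were 82.5 ± 4.75 and 48.0 ± 11.6 CPM (SD, n = 3; log2 fold change 0.78, SE 0.23, 95% interval 0.27 to 1.29, edgeR adjusted p = 0.0797). The adjusted p was 0.0264 with DESeq2, and 0.0363 without non-foamy replicate 3 (log2 fold change 1.01), and over all 16 alternatives it ran from 0.0264 to 0.593. Rab9 (ENSMUSG00000079316) lies on the minus strand of chromosome X from 166457253 to 166479867, and 6.20% of its 50-base windows occur elsewhere, in the pseudogene Rab9b-ps1.

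Rab7 stood at 447, 316 and 330 CPM in foamy and at 323, 315 and 263 CPM in non-foamy libraries. Foamy replicate 1 was high, and the other 2 foamy libraries lay among the non-foamy ones or just beside them. The difference had a log2 fold change of 0.28 (SE 0.19, 95% interval -0.14 to 0.70, edgeR adjusted p = 0.498), and 12.7% of its 50-base windows occur in other genes, mostly the pseudogene Rab7-ps1. Rab7b, known from transport between late endosomes and the trans-Golgi network, stood at 309, 292 and 337 against 290, 251 and 183 CPM. The groups of Rab7b touched without overlap (log2 fold change 0.37, SE 0.20, edgeR adjusted p = 0.358). Rab32, of lysosome-related organelles, and Rab12, which takes receptors toward degradation, had log2 fold changes of 0.28 and 0.61 with overlapping groups. Rab38, a relative of Rab32, was at 1.00 to 4.21 CPM in foamy and 0 to 2.91 CPM in non-foamy libraries.

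Rab39, which acts on late endosomes and phagosomes, was at 0, 2.67 and 1.24 CPM in foamy and 2.92, 7.65 and 4.41 CPM in non-foamy libraries. These values rest on 0 to 48 reads per foamy library, and the groups did not overlap. The log2 fold change was -1.94 (SE 1.16, edgeR adjusted p = 0.426), and without foamy replicate 2 it was -3.001.

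**Figure D4:**
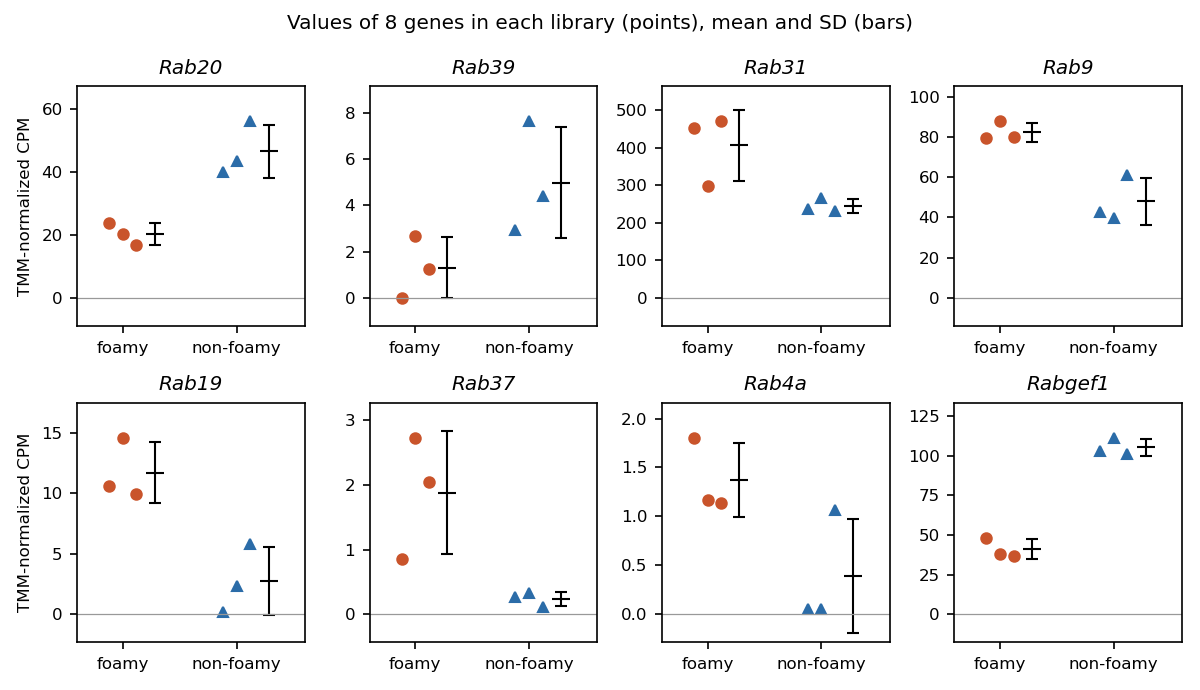
TMM-normalized CPM of 7 Rab genes and Rabgef1 in each library (points), with the mean and SD of each group (bars, n = 3), linear axes that differ by panel. The groups do not overlap in any panel, and edgeR called Rab20 and Rabgef1.

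Among the 7 tested genes of recycling endosomes the median log2 fold change was 0.29, with 4 above 0 and none past the test. Rab11b, which with Rab11a returns membrane from recycling endosomes to the surface, stood at 76.5, 61.2 and 70.9 CPM in foamy and 41.3, 56.6 and 50.5 CPM in non-foamy libraries. The groups were apart by a small gap (log2 fold change 0.49, SE 0.22, edgeR adjusted p = 0.266), and 13.6% of its 50-base windows occur in other genes. Rab11a was at 184, 113 and 121 against 41.8, 119 and 145 CPM, with non-foamy replicate 1 alone far below the rest. Its log2 fold change of 0.45 became 0.07 without that library. Rab14, which moves cargo between the Golgi and endosomes, was at 124, 153 and 155 against 95.7, 123 and 136 CPM (log2 fold change 0.29, edgeR adjusted p = 0.515).

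Rab4a, of fast recycling from early endosomes, was scarce, at 1.80, 1.17 and 1.13 CPM in foamy and 0.054, 0.055 and 1.06 CPM in non-foamy libraries. The non-foamy values stand for 1, 1 and 27 reads, so non-foamy replicate 3 lies just under the foamy libraries and the other 2 far below. The fitted log2 difference was 1.76 (SE 1.25, edgeR adjusted p = 0.517) and 4.50 without non-foamy replicate 3. Rab15, which also serves recycling, was at 6.55 CPM in non-foamy replicate 2 and at 0.223 to 1.46 CPM in the other libraries. Its log2 fold change of -1.84 came with a 95% interval from -4.70 to 1.02, and without that library it was 0.66. Rab4b and Rab35 had log2 fold changes of -0.15 and -0.08.

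Of the 15 genes of the endoplasmic reticulum, Golgi and lipid droplet, 12 were tested, with a median log2 fold change of 0.24 and none past the test. Rab18, found on lipid droplets, stood at 130.0, 110.4 and 114 CPM in foamy and at 152, 162 and 99.2 CPM in non-foamy libraries. The lowest value was a non-foamy one and the groups overlapped (log2 fold change -0.22, 95% interval -0.70 to 0.26, edgeR adjusted p = 0.679). That interval excludes a 2-fold difference in either direction. Rab1a, which serves transport from the endoplasmic reticulum to the Golgi, was at 192, 226 and 200.5 against 154, 172 and 159 CPM. Each foamy value of Rab1a was above each non-foamy value, with a log2 fold change of 0.35 (SE 0.17, edgeR adjusted p = 0.306). Rab1b, its close relative, was at 81.4, 40.1 and 29.4 against 34.0, 56.8 and 58.3 CPM, with no common direction (log2 fold change 0.02).

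Rab19, a Golgi Rab, was at 10.6, 14.6 and 9.98 CPM in foamy and at 0.217, 2.31 and 5.79 CPM in non-foamy libraries. The groups were apart, and the non-foamy values were spread from 4 to 147 reads. The log2 fold change was 2.07 (SE 0.83, 95% interval 0.25 to 3.88, edgeR adjusted p = 0.199), and 3.22 without non-foamy replicate 3. With no filter on low counts the adjusted p was 0.0204, the lowest of 16 alternatives, of which the highest gave 0.418. Of the other Golgi members, Rab2a, Rab2b, Rab6a and Rab29 had log2 fold changes from 0.23 to 0.37, all with overlapping groups. Rab6b, Rab33b and Rab43 lay at -0.39, -0.42 and -0.23, and Rab34 at 0.68 with values from 0 to 3.56 CPM. Rab43, Rab4b and Rab2b share 57.0% to 74.5% of their 50-base windows with other annotated transcripts, so their counts are uncertain.

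Of the 11 genes of exocytosis and the plasma membrane, 8 were tested and none was called (median log2 fold change 0.17). Rab8b, which with Rab8a carries vesicles from the Golgi to the surface, stood at 339, 287 and 365 CPM in foamy and at 439, 346 and 253 CPM in non-foamy libraries. The non-foamy libraries surrounded the foamy ones, and the log2 fold change was -0.07 (95% interval -0.54 to 0.41). Rab8a was at 203, 192 and 227 against 207, 179 and 147 CPM (log2 fold change 0.22, edgeR adjusted p = 0.605). Rab10, which delivers transporters to the surface, was at 93.6, 125 and 107 against 97.1, 117 and 84.98 CPM (log2 fold change 0.12).

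Rab37, of secretory granules, was at 0.854, 2.73 and 2.05 CPM in foamy and at 0.271, 0.330 and 0.118 CPM in non-foamy libraries. Non-foamy libraries held 5, 6 and 3 reads and foamy ones 18, 49 and 38, with no overlap. Fitted across all genes, the log2 fold change was 2.95 (SE 1.06, 95% interval 0.63 to 5.27, edgeR adjusted p = 0.147), the highest of the tested Rab genes. Rab3d, of regulated secretion, was at 19.7, 9.75 and 17.2 against 9.70, 12.7 and 9.41 CPM (log2 fold change 0.55). Rab13, Rab27a and Rab3a had overlapping groups and log2 fold changes of 0.44, -0.22 and -0.45.

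The 4 tested genes with other roles or a role in the cilium had log2 fold changes from -0.04 to 0.22. Rab24, tied to autophagy, was at 5.12 to 7.83 CPM in foamy and 3.63 to 8.38 CPM in non-foamy libraries, and shares 49.6% of its 50-base windows with Prelid1. Rab40c, part of a ubiquitin ligase, had a log2 fold change of 0.22, Rab28 one of -0.04 and Rab23 one of 0.07. The 7 members with too few reads to test were Rab26, Rab3c, Rab27b, Rab42, Rab30, Rab33a and Rab36, and their highest value in any library was 2.04 CPM. The 7 symbols below 10 reads were Rab3b and Rab9b with no read, Rab39b with 2, Rab25 with 6, Rab17 with 8 and Rab40b and Rab44 with 9 each.

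Ratios of RPKM between relatives, for 10 pairs picked with these values known, are descriptions. Rab8a over Rab8b was 0.607, 0.678 and 0.632 in foamy and 0.478, 0.526 and 0.588 in non-foamy libraries, so the groups were apart. Rab20 over Rab31, of the same endosomal group, was 0.125, 0.163 and 0.086 against 0.403, 0.392 and 0.584. The foamy ratios were lower in each library, as the values of both genes above imply. Rab6b over Rab6a was 0.035 to 0.070 against 0.085 to 0.104, and the other 7 pairs overlapped. Rab6b rests on 30 to 127 reads per library, and 19.0% of the 50-base windows of Rab6a occur in other genes, mostly Mrpl48.

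The genes that load, unload and read Rab proteins were followed in 9 lists of 152 genes, of which 130 were tested. Of these, 1 (0.769%) was called, against the background of 5.41%: Rabgef1 (Rabex-5), the exchange factor that loads GTP onto Rab5. All foamy values lay above all non-foamy values in 8 of the 130 (background 12.4%) and below in 10 (background 13.3%). Before adjustment, 14 of the 130 had an edgeR p below 0.05 (background 18.7%). Each of these shares was smaller than that of all genes tested. Rabgef1 stood at 48.3, 38.1 and 36.8 CPM in foamy and at 103, 111 and 101 CPM in non-foamy libraries. The groups were far apart, with means of 41.1 ± 6.28 and 105 ± 5.34 CPM (SD, n = 3; log2 fold change -1.36, SE 0.21, edgeR adjusted p = 0.00361). Its call held under all 16 alternative settings, with log2 fold changes from -1.63 to -1.25. Rabgef1 (ENSMUSG00000025340) lies on chromosome 5 from 130171798 to 130214342. The other exchange factors were not called, and the median over all 36 tested was 0.00. Dennd4a, which loads GTP onto Rab10, stood at 15.4, 17.7 and 17.7 CPM in foamy and at 42.1, 32.7 and 26.2 CPM in non-foamy libraries. Its groups were apart (log2 fold change -0.99, SE 0.29), and edgeR's adjusted p of 0.0731 became 0.0347 with total counts only, 0.0488 with the stricter filter and 0.0215 with DESeq2, in a range of 0.0215 to 0.362 over 16 alternatives.

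In the other 8 lists nothing was called. Median log2 fold changes were -0.01 for prenylation and GDI genes, -0.14 for 31 GTPase-activating proteins, and -0.15 for effectors of the early endosome. They were 0.17 for effectors of the late endosome and lysosome, -0.89 for 8 effectors of recycling, 0.48 for 6 of exocytosis, 0.17 for 13 of the Golgi and -1.31 for 3 Rab kinases and phosphatase, beside -0.04 for all genes. All 8 tested recycling effectors had a log2 fold change below 0, from -1.70 to -0.15, while 47.2% of all genes tested were above 0. Of these 8, Rab11fip1, Rab11fip2, Rab11fip3 and Micall1 were scarce, at 0.095 to 8.27 CPM over the libraries. More genes had reads in non-foamy libraries (19380 to 24701) than in foamy ones (15595 to 17757). The part of this in the values of scarce genes was not tested. Zfyve27 (protrudin), which binds Rab11, was at 3.46, 3.01 and 6.15 against 26.9, 5.67 and 8.58 CPM, with non-foamy replicate 1 high (log2 fold change -1.70, edgeR adjusted p = 0.157). Without that library the log2 fold change was -0.765, and over 16 alternatives the adjusted p ran from 0.0477, with DESeq2, to 0.547. Exoc6, an exocyst subunit bound by Rab11, was at -0.60 on the same scale.

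Plekhm2 (SKIP), which links lysosomes to kinesin, was at 8.07, 10.3 and 10.1 CPM in foamy and 1.57, 2.81 and 3.19 CPM in non-foamy libraries. The groups were apart (log2 fold change 1.91, SE 0.53, edgeR adjusted p = 0.0617). Over 16 alternatives the adjusted p of Plekhm2 ran from 0.00706, with DESeq2, which alone called it, to 0.201. Lrrk1, a kinase of Rab7, was at 3.94, 2.67 and 4.10 against 10.9, 10.9 and 11.4 CPM. Its groups were also apart (log2 fold change -1.63, SE 0.46, edgeR adjusted p = 0.0673). For Lrrk1 the adjusted p was 0.0101 with DESeq2 and 0.0314 with total counts only, in a range up to 0.214. Lrrk2, the kinase of Rab8, Rab10 and other Rab proteins, had a log2 fold change of -1.31 with overlapping groups. Tbc1d16, a GTPase-activating protein of Rab4, stood at 0.451 ± 0.261 against 3.06 ± 1.30 CPM (SD, n = 3; log2 fold change -2.75, edgeR adjusted p = 0.141, and 0.0478 to 0.327 over 15 alternatives, with DESeq2 alone calling it), and Tbc1d1 at a log2 fold change of 0.97. The golgin gene Golga1 and the Golgi stacking gene Gorasp2 had log2 fold changes of 2.05 and 0.80, with foamy libraries above. Among the remaining names, Eea1, the Rab5 tether, was at 0.52, Ankfy1 at -0.84, the retromer subunit Vps29 at 0.41, Myo5a at 0.51, Mical1 at -0.76, Rabggtb at 0.24 and Chml at -1.11, none of them called. Without single libraries, Chml ran from -2.33 (foamy replicate 2) to -0.50 (non-foamy replicate 3), and Mical1 stood at -0.225 without non-foamy replicate 1.

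**Figure D5:**
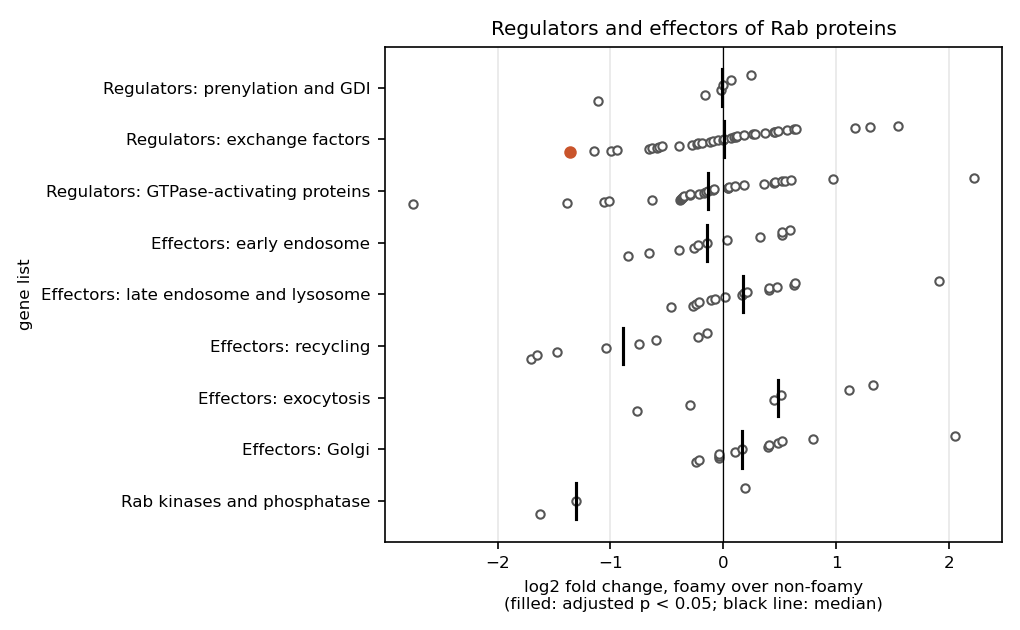
The log2 fold change, foamy over non-foamy, of each of the 130 tested regulators and effectors of Rab proteins (circles), by list, with the median of each list (black line). The 1 filled circle is Rabgef1 at -1.36, and all 8 recycling effectors lie left of 0.

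Several lists of markers of other cells and of cell stress moved in the same direction as Rab20 and Rabgef1. Summed over 8 monocyte markers, foamy libraries held 58.6 to 85.5 CPM and non-foamy libraries 479 to 623 CPM, and 5 of the 7 tested were lower in foamy libraries. Of 15 immediate early and heat shock genes, known to respond to tissue digestion, 13 were lower, with sums of 2264 to 2701 against 4931 to 7404 CPM. The 8 dendritic cell markers summed to 0.38 to 16.1 against 33.5 to 256 CPM, with 1 tested and none called. The tested marker, Cd209a, made up most of the non-foamy sums. It stood at 0.190, 14.5 and 0.324 CPM in foamy and 178, 249 and 32.2 CPM in non-foamy libraries (edgeR adjusted p = 0.278). Ccr7 and Siglech were at 0 in all foamy libraries, and Ccr7 also in non-foamy replicate 3. Clec9a went the other way, at 0, 1.23 and 1.78 CPM in foamy and 0 in all non-foamy libraries. The 6 B cell markers summed to 94.2 to 124 against 579 to 694 CPM, with 1 of 2 tested, Ighm, lower. In the list of mast cells and platelets both tested genes, Pf4 and Ppbp, were lower (list sums 54.7 to 78.1 against 90.5 to 238 CPM). Pf4 made up most of these sums. The mast cell genes Cpa3, Mcpt4 and Tpsb2 were at 0 to 0.163 CPM, and Kit was highest in non-foamy replicate 1, at 2.11 CPM. Of 3 tested neutrophil markers, S100a9 was lower and S100a8 overlapped between the groups. The third, Csf3r, had all foamy values above all non-foamy ones and was not called (log2 fold change 1.38, edgeR adjusted p = 0.0634). The sums of the neutrophil list overlapped, at 14.9 to 27.5 against 10.8 to 40.01 CPM. The 1 tested T and NK cell marker, Klrb1c, was higher (sums 0.76 to 5.70 against 0.16 to 2.05 CPM), and no marker of smooth muscle, endothelial cells or fibroblasts was called. The 10 macrophage markers summed to 24807 to 32505 against 19785 to 28230 CPM, with 2 higher and 4 lower. The part of these markers in the values of Rab20 and Rabgef1 was not tested.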

How the data were processed

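Each library has a deposited table of 41388 Ensembl genes. Per the labels' protocols, the aorta was digested for 8 min and then 70 min, cDNA was made from the sorted cells' lysates with a SMARTer Ultra Low kit, the library was amplified in 12 cycles and read as single 50-base reads, with no molecular identifiers named, so reads are not independent molecules. Per the submitters' processing notes, the tools were STAR 2.0.4b, featureCounts 1.4.5 and Subread, on GRCm38. The use of strand and of reads that map to several genes is not given in the sources used here. The deposited counts are raw whole reads per gene. The authors' CPM and RPKM equal the count scaled to the total in genes, and that value per kilobase, to a tolerance of 1e-06, and were used only in this check. Symbols and gene classes came from GENCODE M21 and matched 97.47% of IDs.

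Genes were tested with edgeR 4.0.16 in R 4.3.3 (filterByExpr, TMM, robust quasi-likelihood F-test) on all 6 libraries, with Benjamini-Hochberg adjustment over 11303 genes and a threshold of 0.05. The SE of a log2 fold change was taken as its absolute value over the root of F. The procedure was tested on simulated data, where it recovered 16% of 50 genes changed 2-fold and 64% of 50 changed 4-fold. Of the calls in those data 1.5% were false. A gene that did not pass the test may therefore still differ between the groups. No 2 libraries of a group were alike to within counting error (chi-square over its degrees of freedom 50.74 to 143.4). Windows of 50 bases of GENCODE M21 transcripts were compared to find sequence shared between genes. Alternatives were RLE and upper-quartile factors, total counts only, DESeq2 1.42.0, limma-voom 3.58.1, leaving out the filter, a stricter filter (at least 10 counts in 3 libraries, mean CPM of at least 5), a replicate block, protein-coding genes only, a 1.5-fold threshold test and leaving out each library in turn.

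The members, gene lists, markers and tests were chosen with earlier results of these data known. Genes given in full are called members, members with groups apart and a fold of at least 1.5, the 5 highest, the relatives that share a number with a called member, up to 2 per role list by p, and in each regulator list the called genes or, with none, up to 2 by p. Rab1b, Rab5a, Rab5b, Rab5c, Rab8a, Rab10, Rab11a, Rab12, Rab15, Rab32, Dennd4a and the antisense RNA were added after their values were seen, as were further members given by a fold change alone. Protein sequences were not analysed here. The level of 1 marker gene is not reported here.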

Additional observations from a re-analysis of the deposited data

How the results depend on the processing

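Direction was followed for 47 of the named genes, and 36 kept it under every alternative that gave them a value. These were 16 alternatives, or 15 for the 8 genes that the stricter filter leaves out. Other members given above by a fold change, such as Rab2a, Rab2b, Rab6a, Rab29, Rab21 and Rab22a, are not among the 47. Rab15 turned to 0.657 without non-foamy replicate 2, from as low as -2.995 without another library. With total counts only, Rab7 (-0.006), Rab8a (-0.061), Rab1b (-0.252), Rab40c (-0.069), Rab24 (-0.142), Rab5a (-0.142), Rab32 (-0.003), Rab10 (-0.144) and Rabggtb (-0.03) changed sign on the log2 scale. Over all 45 tested Rab genes, 31 were above 0 in the main fit and 19 with total counts only. Rab genes outside the 47 therefore also changed sign there. Rab8b changed sign with no filter (0.058), without foamy replicate 2 (0.036) and without non-foamy replicate 1 (0.138), with a range of -0.237 to 0.138 over single libraries left out. Rab1b did so with limma-voom (-0.069), the stricter filter (-0.001), the replicate block (-0.094), without foamy replicate 1 (-0.509) and without non-foamy replicate 1 (-0.197), with a range of -0.509 to 0.298. Rab40c ran from -0.121 (without non-foamy replicate 2) to 0.506, and Rab24 from -0.155 (without non-foamy replicate 1; -0.049 without foamy replicate 1) to 0.441.

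Over all genes, edgeR called 611 (283 higher, 328 lower), and 165 higher and 614 lower with total counts only. DESeq2 called 1173 (10.6%), the fit with no filter 888, the stricter filter 708, the 1.5-fold test 276, and leaving out 1 library 271 to 579. Rab calls numbered 3 with DESeq2 (Rab20, Rab31, Rab9), 3 with no filter (Rab20, Rab31, Rab19), 2 with the stricter filter (Rab20, Rab31), 0 with the 1.5-fold test and 0 to 1 with 1 library left out. The 1 call was Rab31 without foamy replicate 2, Rab9 without non-foamy replicate 3 and Rab20 without non-foamy replicate 1. Calls among regulators and effectors numbered 3 with total counts only (Rabgef1, Lrrk1, Dennd4a), 6 with DESeq2 (those 3, Plekhm2, Tbc1d16 and Zfyve27) and 2 with the stricter filter (Rabgef1, Dennd4a). Of these genes 130 were tested in the main fit. Beside these counts stand 779 calls over all genes with total counts only, 1173 (10.6%) with DESeq2 and 708 with the stricter filter. The cause of these changes was not tested.

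The labels do not say whether a replicate number marks shared mice, and the libraries gave no sign of it: same-numbered libraries correlated at -0.122, -0.033 and -0.048 in their deviations from the group means, and 0 of 6 correlated best with their own number. The replicate block gave 391 calls over all genes, 0 among Rab genes (Rab20 edgeR adjusted p = 0.0807) and 1 among regulators. Depth limits Rab37, Rab39, Rab4a and the untested members, which rest on few reads.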
